A study of Homo sapiens with 8 samples.

Results

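Expression of 9 cell-surface antigens that are pursued as targets of antibodies, radioligands or engineered T cells in prostate cancer was followed across 8 RNA-sequencing libraries. The genes were FOLH1, STEAP1, STEAP2, EPCAM, CD276, CEACAM5, NECTIN4, SSTR2 and PSCA. They were taken by gene symbol, 9 of the 78691 genes in the count table, and each symbol was kept at the row with the most counts. The study asked what the transcription factor MYCL does in prostate adenocarcinoma (AdPC) and in neuroendocrine prostate cancer (NEPC). Its AdPC model was C4-2B, a castration-resistant cell line, which carried either an empty lentiviral vector (C4-2B control) or the lentiviral vector with human MYCL, driven by the EF1A promoter and linked to EGFP (C4-2B MYCL). Its NEPC model was NCI-H660, a neuroendocrine line, which carried a non-targeting shRNA (NCI-H660 shCtrl) or shRNA against MYCL (NCI-H660 shMYCL). The series text names an adenoviral vector for the knockdown and the labels describe it as stable, so which vector these libraries carried was not settled. Each of the 4 groups had 2 libraries of poly(A) RNA, so each group is a single line under a single vector, and vector type, culture and line cannot be told apart between the lines.

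Surface antigens of the prostate mark different cell states. FOLH1 (PSMA), the STEAP proteins and PSCA belong to the luminal epithelial program, and FOLH1 and the STEAP genes are widely described in adenocarcinoma. Neuroendocrine tumors often lose these antigens and can carry others, such as SSTR2 and CEACAM5, while EPCAM, CD276 and NECTIN4 are found on many epithelial cancers. MYCL binds DNA as a heterodimer with MAX, mainly at the E-box letters CACGTG.

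The libraries held between 15177071 and 32344170 assigned counts, with the highest total in a C4-2B control library. Mitochondrial genes took 9.63 to 10.7% of counts in C4-2B and 3.50 to 3.83% in NCI-H660. MYCL itself followed the labels, with 371 and 320 counts in C4-2B control, 65524 and 70253 in C4-2B MYCL, 1863 and 1602 in NCI-H660 shCtrl, and 165 and 198 in NCI-H660 shMYCL. Its log2 fold change was 8.26 ± 0.12 (SE) with overexpression and −3.06 ± 0.15 with knockdown, and C4-2B MYCL held far more MYCL RNA than NCI-H660 shCtrl. The lines also matched their labels in KLK3 and INSM1. KLK3, the gene of prostate-specific antigen, ran from 14810 to 40141 counts in the C4-2B libraries and was at 0 in NCI-H660. INSM1, a neuroendocrine transcription factor, ran from 541 to 1081 in NCI-H660 and was at 0 in C4-2B. Not all markers split this cleanly. The luminal marker KRT8 was higher in NCI-H660 shCtrl than in C4-2B control, by 0.75 on the log2 scale. The neuroendocrine marker DLL3 had 299 and 223 counts in C4-2B control and 412 and 496 in NCI-H660 shCtrl. After normalization for library depth, DLL3 was higher in NCI-H660 shCtrl by 1.30 on the log2 scale. The white blood cell marker PTPRC had at most 1 count in any library.

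Between the control cells, FOLH1, STEAP1, STEAP2 and PSCA were far higher in C4-2B RNA, and EPCAM and CEACAM5 were higher in NCI-H660 RNA. Levels of different genes were compared per transcript length, in deposited TPM (mean ± SD, n = 2). TPM is a read count scaled by library depth and by a gene length, which here varied between libraries. In C4-2B control the order was FOLH1 at 349 ± 5.04, STEAP1 at 212 ± 6.94, EPCAM at 136 ± 1.40, STEAP2 at 77.5 ± 1.44, CD276 at 37.6 ± 1.27, PSCA at 25.7 ± 0.775, NECTIN4 at 3.74 ± 0.393 and SSTR2 at 0.177 ± 0.043, with CEACAM5 at 0. In C4-2B MYCL the same order held, from 258 TPM for FOLH1 down to 0.165 TPM for SSTR2, and no neighbors in either C4-2B order overlapped. In NCI-H660 shCtrl, EPCAM led at 1030 ± 102 TPM, followed by CEACAM5 at 320.0 ± 40.4 and CD276 at 66.0 ± 3.95. SSTR2, NECTIN4 and STEAP1 then lay at 1.49, 1.35 and 1.34 TPM with overlapping libraries, STEAP2 at 0.341 TPM was lower, and FOLH1 and PSCA were at 0. The NCI-H660 shMYCL order kept EPCAM, CEACAM5 and CD276 on top at 914, 232 and 57.1 TPM, but SSTR2, the highest of the low genes in shCtrl, was the lowest detected antigen at 0.304 TPM and overlapped STEAP2.

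**Figure D1:**
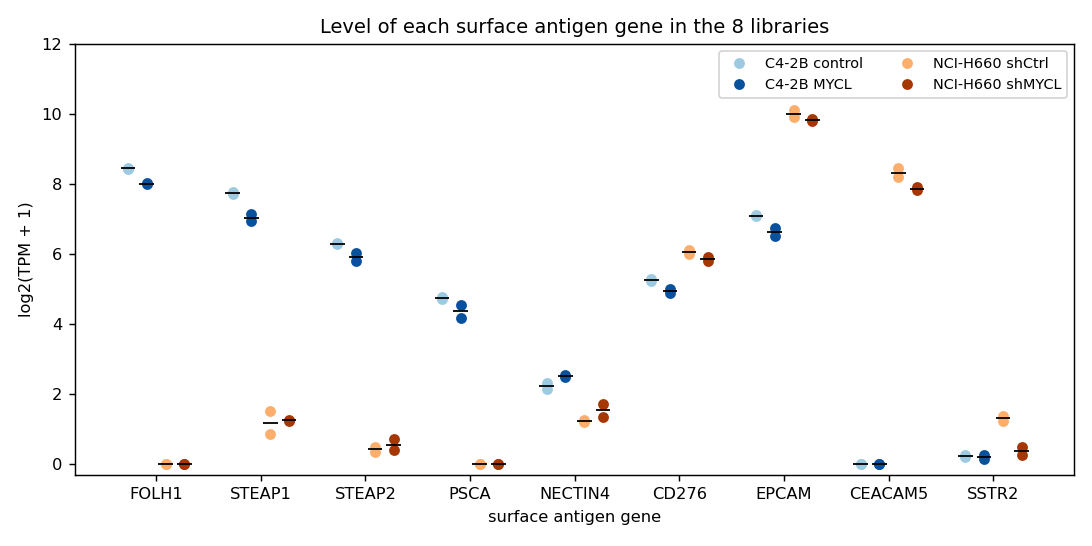
Level of each of the 9 antigens (x axis) as log2(TPM + 1) (y axis), with a point for each of the 8 libraries, colored by group, and a line at the mean of a group. FOLH1, STEAP1, STEAP2 and PSCA are high in C4-2B and at or near 0 in NCI-H660, CEACAM5 is detected in NCI-H660 only, and EPCAM and CD276 are high in both lines.

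FOLH1 (chr11:49145092-49208638, minus strand, GRCh38) encodes PSMA, a glutamate carboxypeptidase and the target of lutetium-based radioligands. It had 22769 and 16202 counts in C4-2B control, 10160 and 10212 in C4-2B MYCL, and 0 in all 4 NCI-H660 libraries. The lines did not overlap. Set against 3 counts per library, a limit chosen for counts at or near 0, FOLH1 was at least 4547-fold lower in NCI-H660 shCtrl than in C4-2B control. The other bounds below rest on the same chosen limit. Its close paralog FOLH1B had 6 to 30 counts in C4-2B and 0 in NCI-H660, and reads that fit both copies cannot be assigned with certainty.

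PSCA, a GPI-anchored protein of the LY6 family (chr8:142670308-142682725, plus strand), showed the same split. It had 483 and 372 counts in C4-2B control, 307 and 216 in C4-2B MYCL, and 0 in NCI-H660, at least 100.4-fold lower in NCI-H660 shCtrl than in C4-2B control. Of its annotated exon bases, 20.8% lie opposite exons of JRK on the other strand, and JRK had 1049 and 1168 counts in NCI-H660 shCtrl, where PSCA stayed at 0.

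STEAP1 and STEAP2, membrane proteins of the metalloreductase family, are neighbors on chromosome 7. STEAP1 spans chr7:90154456-90164829 and STEAP2 chr7:90167590-90238137, both on the plus strand, 2761 bases apart. STEAP1 had 5455 and 4123 counts in C4-2B control, 2194 and 1963 in C4-2B MYCL, 8 and 21 in NCI-H660 shCtrl, and 12 and 13 in NCI-H660 shMYCL. STEAP2 had 12252 and 9402, 6728 and 5756, 18 and 19, and 23 and 13 counts in the same order of groups. Both genes were detected in each NCI-H660 library but at a small fraction of the C4-2B level, with a log2 difference of −7.85 ± 0.18 (SE) for STEAP1 and −8.68 ± 0.16 for STEAP2 between the control groups. Of the next genes along the chromosome, CFAP69, 7037 bases from STEAP2, had 192 and 110 counts in C4-2B control and 15 and 29 in NCI-H660 shCtrl, and FAM237B had at most 10 counts in any of these libraries. Farther away, GTPBP10 had 928 and 826 counts and CLDN12 had 1026 and 994 in NCI-H660 shCtrl, against 2725 and 1929 and 4971 and 4013 in C4-2B control.

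EPCAM and CEACAM5 ran the other way. EPCAM, an epithelial adhesion molecule (chr2:47345158-47387601, plus strand), had 4750 and 3488 counts in C4-2B control, 2251 and 1970 in C4-2B MYCL, 14271 and 14443 in NCI-H660 shCtrl, and 10691 and 11489 in NCI-H660 shMYCL. Every NCI-H660 library was above every C4-2B library, and the control groups differed by 2.31 ± 0.09 on the log2 scale. CEACAM5, the carcinoembryonic antigen (chr19:41708585-41730433, plus strand), had 0 counts in all 4 C4-2B libraries, 8170 and 7822 in NCI-H660 shCtrl, and 5230 and 4909 in NCI-H660 shMYCL, at least 3712-fold higher in NCI-H660 shCtrl than in C4-2B control. The adjacent family member CEACAM6 split in the same way, at 0 in C4-2B and 14284 and 12580 counts in NCI-H660 shCtrl. These genes are near-copies of each other, so reads may be shared among them.

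CD276 (B7-H3), an immune checkpoint ligand (chr15:73683966-73714514, plus strand), was the antigen closest to equal in the lines, with 2870 and 2211 counts in C4-2B control, 1496 and 1398 in C4-2B MYCL, 1979 and 2144 in NCI-H660 shCtrl, and 1451 and 1623 in NCI-H660 shMYCL. The control groups differed by 0.20 ± 0.08 on the log2 CPM scale and by 0.80 on the log2(TPM + 1) scale, where the median over all tested genes was 0.52, and by 0.05 once each library was centered on its own median. NECTIN4, an adhesion molecule and the target of enfortumab vedotin (chr1:161070998-161089558, minus strand), was low in both lines, with 355 and 222 counts in C4-2B control and 42 and 53 in NCI-H660 shCtrl, a log2 difference of −2.08 ± 0.22. SSTR2, a somatostatin receptor used for imaging and radioligand therapy (chr17:73165010-73176633, plus strand), had 30 and 31 counts in C4-2B control and 123 and 120 in NCI-H660 shCtrl, a log2 difference of 2.47 ± 0.38. NECTIN4 was therefore higher in C4-2B and SSTR2 in NCI-H660, without overlap, although both were low in each line.

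By edgeR's quasi-likelihood test, where a call meant a Benjamini-Hochberg adjusted p under 0.05 together with a change of 0.5 or more on the log2 scale in either direction, 8 of the 9 antigens differed between the control groups. Of all 19605 genes tested, 69.8% did, so most genes separated these lines, with 7150 higher and 6537 lower in NCI-H660 on counts and 8749 higher and 3560 lower on log2(TPM + 1). The 5 antigens called lower in NCI-H660, against 33.3% of all genes, were FOLH1, STEAP1, STEAP2, NECTIN4 and PSCA, and the 3 called higher, against 36.5%, were EPCAM, CEACAM5 and SSTR2. All 9 had an adjusted p under 0.05, as did 77.8% of genes, and CD276, at 0.0389 by edgeR, was not called because of its small fold.

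The sequences around the transcription starts of STEAP1 and SSTR2, the antigens that passed the test in a MYCL comparison, and of STEAP2 and CEACAM5, a neighbor and a gene restricted to 1 line, are given for reference. Each window runs from 250 bases before to 50 bases after a start in RefSeq (GRCh38.p14), 5′ to 3′ on the gene's strand, and 6 of the 9 antigens had an entry. Capitals mark E-box letters, searched on both strands as CACGTG, which 7.26% of 35116 promoter windows hold, and CAGCTG, which 17.9% hold. The windows are chr7:90154219-90154518 for STEAP1, chr7:90211490-90211789 for STEAP2, which starts inside the longer annotated gene, chr19:41708376-41708675 for CEACAM5 and chr17:73164760-73165059 for SSTR2, all on the plus strand.
STEAP1: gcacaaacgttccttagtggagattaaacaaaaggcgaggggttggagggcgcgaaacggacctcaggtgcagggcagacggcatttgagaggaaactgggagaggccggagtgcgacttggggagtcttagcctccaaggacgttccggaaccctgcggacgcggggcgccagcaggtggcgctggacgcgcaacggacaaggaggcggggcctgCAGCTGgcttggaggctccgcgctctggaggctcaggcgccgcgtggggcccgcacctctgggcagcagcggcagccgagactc
STEAP2: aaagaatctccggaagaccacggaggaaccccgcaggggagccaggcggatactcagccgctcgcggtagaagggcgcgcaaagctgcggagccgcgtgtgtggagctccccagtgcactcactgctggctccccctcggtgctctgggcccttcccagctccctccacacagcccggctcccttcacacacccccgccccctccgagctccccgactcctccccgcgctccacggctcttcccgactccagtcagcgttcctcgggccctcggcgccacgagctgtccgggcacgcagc
CEACAM5: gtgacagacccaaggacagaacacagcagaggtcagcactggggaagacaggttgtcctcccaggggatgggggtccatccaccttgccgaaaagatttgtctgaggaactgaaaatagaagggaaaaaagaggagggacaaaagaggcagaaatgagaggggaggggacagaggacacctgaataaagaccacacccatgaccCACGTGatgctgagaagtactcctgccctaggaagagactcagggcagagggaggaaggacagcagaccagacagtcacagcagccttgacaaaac
SSTR2: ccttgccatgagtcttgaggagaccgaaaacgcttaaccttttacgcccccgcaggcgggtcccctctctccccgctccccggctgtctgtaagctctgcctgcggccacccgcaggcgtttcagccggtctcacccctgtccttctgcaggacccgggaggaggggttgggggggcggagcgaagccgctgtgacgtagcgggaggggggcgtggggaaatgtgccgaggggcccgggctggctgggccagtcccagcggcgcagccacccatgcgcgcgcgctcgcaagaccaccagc
STEAP1 held CAGCTG 34 bases before its start (offset -34) and CEACAM5 held CACGTG at offset -46. Neither set of letters was in the STEAP2 or SSTR2 window shown. The windows not printed, another of STEAP2 and those of CD276 and NECTIN4, held neither. Of the 6 antigens with an entry, only CEACAM5 thus held CACGTG and only STEAP1 held CAGCTG. A match is a string of letters and not evidence of binding, and no match says only that the letters are not in this window.

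The first MYCL comparison, of C4-2B MYCL with C4-2B control, addressed what added MYCL does to the antigens of an AdPC line. STEAP1 fell, and it was the only antigen that met the call, 1 of 8 tested against 19.9% of all 16866 genes, of which 8.12% were called lower and 11.8% higher. The split of calls over all genes turned with the scale, from 1986 higher and 1369 lower on counts to 1006 higher and 1997 lower on log2(TPM + 1). FOLH1, EPCAM and NECTIN4 had an adjusted p under 0.05 with changes smaller than the 0.5 minimum, so that 4 of 8 reached that p against 35.0% of genes, and CD276, STEAP2, PSCA and SSTR2 did not reach that p. The median log2 fold change of the 8 was −0.16 against 0.00 for all genes tested, with 6 negative and 2 positive, and CEACAM5 could not be tested at 0 counts. Levels below are in CPM, counts scaled to library depth with TMM normalization within the line, and n = 2 per group throughout. At 2 libraries against 2, groups without overlap reach an exact permutation p of 0.33 at best. A lack of overlap therefore only describes the libraries, and the share of all genes without overlap is not given here.

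STEAP1 measured 168 and 173 CPM in C4-2B control and 119 and 112 CPM in C4-2B MYCL. Both MYCL libraries lay below both controls, and the log2 fold change was −0.56 ± 0.07 (SE; edgeR adjusted p = 5.58e-04), a 1.47-fold decrease. The call held when each of the 4 libraries was left out. Its neighbor STEAP2 measured 377 and 395 CPM in control and 365 and 329 CPM in C4-2B MYCL, without overlap but with a log2 fold change of only −0.15 ± 0.08 (edgeR adjusted p = 0.159).

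FOLH1 measured 699.8 and 681 CPM in control and 551 and 584 CPM with MYCL. The groups did not overlap and the log2 fold change was −0.28 ± 0.07 (edgeR adjusted p = 0.0135), which became 0.143 and 0.0843 without control replicate 1 or 2. PSCA measured 14.8 and 15.6 CPM in control and 16.6 and 12.4 CPM with MYCL, so the MYCL libraries lay on both sides of the controls, and the log2 fold change was −0.07 ± 0.15 (edgeR adjusted p = 0.754).

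Over the 6 luminal markers reported here, 3 had negative and 3 positive values in the same comparison, and KLK3 was called lower, at −0.52 on the log2 scale. TMPRSS2 at 0.39 and KRT8 at 0.33 had edgeR adjusted p-values of 0.00346 and 0.0176 below the minimum fold, and the summed level of the 6 was 2706 to 2743 CPM in control and 2486 to 2603 CPM in C4-2B MYCL. Of the white blood cell markers, 2 were tested, 1 with a positive and 1 with a negative value, and 2 had an edgeR unadjusted p under 0.05. CD68, the positive one, was called higher at 1.53, and PTPRC was at 0 in both groups. The summed level, over 4 markers, was 11.3 to 14.2 CPM in control against 33.0 to 37.5 CPM in C4-2B MYCL. Of the fibroblast markers, COL1A1 was called higher at 0.74, with COL1A2, DCN and LUM at 0 and a summed level that was at most 13.2 CPM in control and at least 19.0 CPM in C4-2B MYCL. The part of these markers in the antigen values was not tested. In bulk RNA, fewer cells with an antigen and less antigen RNA per cell cannot be told apart.

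EPCAM measured 146.0 and 147 CPM in C4-2B control and 122 and 113 CPM in C4-2B MYCL. The groups did not overlap, and the log2 fold change was −0.32 ± 0.07 (edgeR adjusted p = 0.00969), with adjusted p-values of 0.0591 and 0.0597 without control replicate 1 or 2. CD276 measured 88.2 and 92.9 CPM in control and 81.1 and 80.0 CPM with MYCL, a log2 fold change of −0.17 ± 0.07 (edgeR adjusted p = 0.105).

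NECTIN4 was the antigen with the largest positive value. It measured 10.9 and 9.33 CPM in control and 13.9 and 14.4 CPM with MYCL, and its counts were 355, 222, 256 and 251. The groups did not overlap and the log2 fold change was 0.48 ± 0.13 (edgeR adjusted p = 0.0227), just under the minimum fold. SSTR2 rested on few reads, 30 and 31 counts in control and 26 and 15 in C4-2B MYCL, and at 0.04 ± 0.45 its direction was not detectable at this depth.

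**Figure D2:**
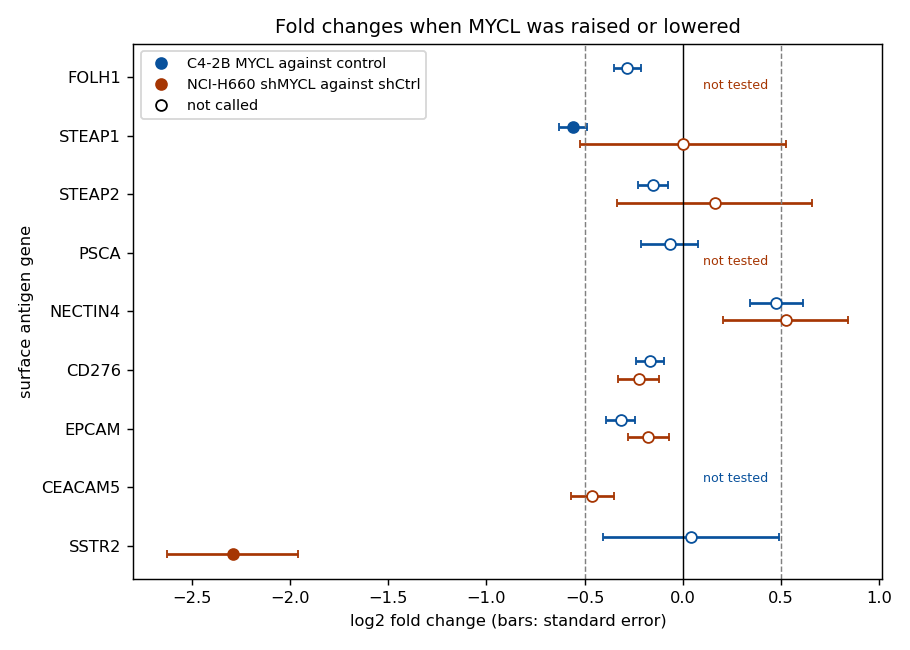
Log2 fold changes (x axis) of the 9 antigens (y axis) for C4-2B MYCL against control and for NCI-H660 shMYCL against shCtrl, with bars of 1 SE; filled points met the call, dashed lines mark a log2 change of 0.5 in either direction, and antigens at 0 counts in a line are marked as not tested. STEAP1 in C4-2B at −0.56 and SSTR2 in NCI-H660 at −2.29 are the filled points.

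The second comparison, of NCI-H660 shMYCL with NCI-H660 shCtrl, addressed what losing MYCL does to the antigens of an NEPC line. SSTR2 fell, again the only antigen called, 1 of 7 tested against 16.2% of all 16980 genes, of which 8.99% were called lower and 7.18% higher. CEACAM5 had an adjusted p under 0.05 with a change below the minimum, so that 2 of 7 reached that p against 24.8% of genes, and EPCAM, CD276, NECTIN4, STEAP1 and STEAP2 did not reach that p. The median over the 7 was −0.18 on the log2 scale, with 5 negative and 2 positive, against 0.00 for all genes tested, and FOLH1 and PSCA could not be tested at 0 counts.

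SSTR2 had 123 and 120 counts in shCtrl and 29 and 14 counts in shMYCL, which is 7.26 and 6.49 CPM against 1.91 and 0.894 CPM. The groups lay far apart, and the log2 fold change was −2.29 ± 0.33 (edgeR adjusted p = 1.61e-04), a 4.90-fold decrease. The knockdown libraries came down to the range of C4-2B: with all 8 libraries normalized together, SSTR2 averaged 1.33 CPM in NCI-H660 shMYCL, 1.19 CPM in C4-2B MYCL and 1.18 CPM in C4-2B control, and these groups overlapped. On TPM values tested with limma, SSTR2 was not called: the log2 fold change was −0.94 (adjusted p = 0.0760) with a pseudocount of 1 and −2.03 (adjusted p = 0.106) with a pseudocount of 0.1. Dropping shMYCL replicate 1 or 2 gave log2 fold changes of −2.92 and −1.84, and the call held.

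The other somatostatin receptors did not share the call. SSTR1 had 59 and 63 counts in shCtrl and 29 and 29 in shMYCL (log2 fold change −0.87, edgeR adjusted p = 0.0696), and SSTR5 had 24 and 25 against 35 and 38 (0.77, adjusted p = 0.163). SST, the ligand gene, had 0 counts in every library.

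Over the 7 neuroendocrine markers reported here, 4 had negative and 3 positive values beside SSTR2. INSM1 was called lower, at −0.65 on the log2 scale, from 978 and 1081 counts to 541 and 605, while CHGB at 0.44 and SCG3 at 0.40 had edgeR adjusted p-values of 0.0105 and 0.00965 below the minimum fold. Their summed level was 849 to 868 CPM in shCtrl and 894 to 989 CPM in shMYCL. Of the 6 luminal markers reported here, 3 were tested, 1 with a positive and 2 with negative values. Of these, 2 had an edgeR unadjusted p under 0.05 and 0 were called. KLK3 and KLK2 were at 0, and KRT18, the positive one, had a log2 fold change of 0.41 (edgeR adjusted p = 0.00957), below the minimum fold. The summed luminal level was 1056 to 1122 CPM in shCtrl and 1156 to 1196 CPM in shMYCL. Both sums leave out marker genes that are not reported here. Of the fibroblast markers, COL1A2 was called lower at −0.68 with COL3A1, DCN and PDGFRB at 0, and the summed fibroblast level was 115 to 117 CPM in shCtrl and 73.1 to 79.0 CPM in shMYCL. Their part in the SSTR2 value was not tested. FOLH1 and PSCA stayed at 0 counts in both knockdown libraries.

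CEACAM5 measured 482 and 423 CPM in shCtrl and 344 and 314 CPM in shMYCL. Both knockdown libraries were lower, and the log2 fold change was −0.46 ± 0.11 (edgeR adjusted p = 0.00609), a 1.38-fold difference that remained under the minimum fold. Without shMYCL replicate 2 the adjusted p was 0.0776, and without shCtrl replicate 2 or shMYCL replicate 1 the value passed the minimum at −0.55 and −0.52. CEACAM6 moved from 843 and 681 CPM to 618 and 593 CPM, with a log2 fold change of −0.33 (edgeR adjusted p = 0.0458).

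EPCAM measured 842 and 782 CPM in shCtrl and 704 and 734 CPM in shMYCL, with a log2 fold change of −0.18 ± 0.10 (edgeR adjusted p = 0.237). CD276 measured 117 and 116 CPM in shCtrl and 95.5 and 104 CPM in shMYCL, with a log2 fold change of −0.22 ± 0.10 (edgeR adjusted p = 0.126). Neither pair of groups overlapped, yet neither difference passed the test.

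NECTIN4 had 42 and 53 counts in shCtrl and 47 and 72 in shMYCL, or 2.48 and 2.87 against 3.09 and 4.60 CPM, a log2 fold change of 0.52 ± 0.32 (edgeR adjusted p = 0.253). STEAP1 and STEAP2 stayed near 1 CPM in all 4 NCI-H660 libraries, with log2 fold changes of 0.00 ± 0.52 and 0.16 ± 0.50 and overlapping groups. Changes of such low genes were not detectable at this depth.

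**Figure D3:**
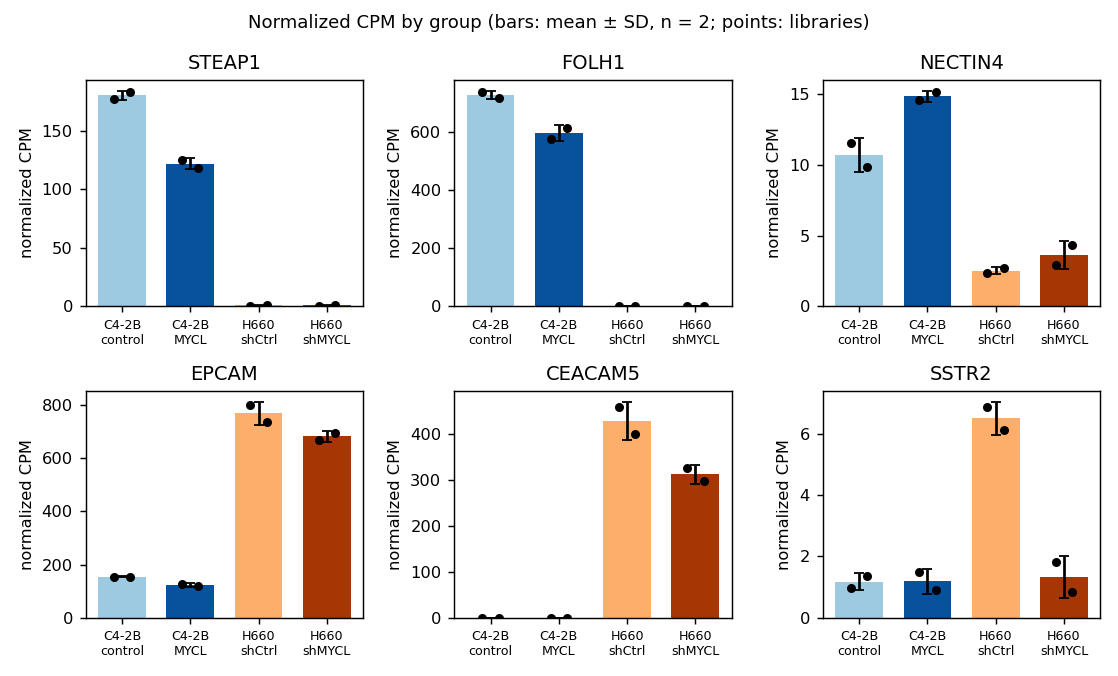
CPM with all 8 libraries normalized together (y axis, starting at 0) of STEAP1, FOLH1, NECTIN4, EPCAM, CEACAM5 and SSTR2 in the 4 groups (x axis); bars are means with SD, n = 2, and points are libraries. STEAP1 averages 180 CPM in C4-2B control and 122 CPM in C4-2B MYCL, and SSTR2 averages 6.50 CPM in NCI-H660 shCtrl and 1.33 CPM in NCI-H660 shMYCL.

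The comparisons move MYCL in opposite directions, so the effect of higher against lower MYCL was compared between the lines, as the log2 change in C4-2B (MYCL minus control) minus that in NCI-H660 (shCtrl minus shMYCL). This could be fitted for the 6 antigens with reads in both lines. The shares over all genes given beside them also count genes without reads in 1 line, among them FOLH1, CEACAM5 and PSCA, so the sets are not alike. For SSTR2 the difference was −2.25 ± 0.58 (edgeR adjusted p = 0.0152) and for NECTIN4 1.00 ± 0.31 (adjusted p = 0.0397), so 2 of 6 were called against 17.9% of all 19605 genes, 8.33% with a negative and 9.59% with a positive difference (1633 and 1880 genes, against 1902 and 1054 on log2(TPM + 1)). Higher MYCL thus went with higher SSTR2 in NCI-H660, while in C4-2B, at 15 to 31 counts, the value was 0.04 and a change was not detectable. NECTIN4 had a positive value in both comparisons, 0.48 with MYCL added and 0.52 with MYCL knocked down, and neither line alone met the call. With any of 3 libraries left out, C4-2B control replicate 2, C4-2B MYCL replicate 2 or NCI-H660 shCtrl replicate 1, neither gene was called, and DESeq2 kept SSTR2 but put NECTIN4 at an adjusted p of 0.052.

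EPCAM and CD276 also differed between the lines by adjusted p but below the minimum fold, so that 4 of 6 reached that p against 20.2% of genes. The difference was −0.50 ± 0.12 for EPCAM (edgeR adjusted p = 0.0112) and −0.40 ± 0.12 for CD276 (adjusted p = 0.0316). Both had negative values in each comparison, −0.32 and −0.18 for EPCAM and −0.17 and −0.22 for CD276, that is, with added MYCL in C4-2B and with MYCL knockdown in NCI-H660. For STEAP1 the difference was −0.57 ± 0.41 (edgeR adjusted p = 0.372), so its fall in C4-2B was not shown to be absent in NCI-H660, where it had 8 to 21 counts.

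Each antigen was also set beside its relatives and partners in 9 gene lists, which held 113 further genes and had been drawn up with earlier results of these data known. In C4-2B, 62 of the 113 were tested, and 15 were called higher and 6 lower, 33.9% against the background of 19.9%, with a median of 0.24 on the log2 scale. In NCI-H660, 77 were tested, and 7 were called higher and 11 lower, 23.4% against 16.2%, with a median of −0.20. The same shares over all genes, 19.9% in C4-2B and 16.2% in NCI-H660, apply to the count of each list below.

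The STEAP family had 2 of 4 tested genes called in C4-2B, both lower: STEAP1 and STEAP4, a metalloreductase, which went from 86 and 53 counts to 8 and 11 (log2 fold change −2.19). STEAP3, which reduces endosomal iron, was called lower in NCI-H660, from 500 and 522 counts to 271 and 259 (−0.75). TFRC, the transferrin receptor and a structural relative of FOLH1, was lower in both, from 19687 and 13744 counts to 5816 and 5191 in C4-2B MYCL (−0.95) and from 6118 and 6498 to 2858 and 2938 in NCI-H660 shMYCL (−0.92). TFRC was lower with more MYCL in C4-2B and with less MYCL in NCI-H660, and the difference between the lines was −1.88 (edgeR adjusted p = 8.73e-07).

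The list of FOLH1 relatives and folate handling had 5 of 9 tested genes called in C4-2B, 3 higher and 2 lower. FOLR1, a folate receptor and itself an antibody target, rose by 2.62 on the log2 scale from 7 and 9 to 39 and 26 counts, SLC19A1, the reduced folate carrier, fell by 0.68, and NAALADL2 rose by 0.64. In NCI-H660, 3 of 7 were called, with NAALADL2 lower at −1.30, TFRC lower and SLC46A1, the proton-coupled folate transporter, higher at 0.66.

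Among the EPCAM relatives, partners and proteases, 3 of 13 tested genes were called in each line, or 23.1%. Of all genes, 19.9% were called in C4-2B and 16.2% in NCI-H660. The called genes differed between the lines, all higher in C4-2B and all lower in NCI-H660. In C4-2B they were CLDN7, a tight junction protein that binds EPCAM (0.71), FHL2, a LIM protein of the EPCAM intracellular signal (1.99), and SPINT2, a protease inhibitor (0.51). In NCI-H660 they were the tetraspanins TSPAN8 (−2.27, from 521 and 546 to 97 and 96 counts) and CD9 (−0.54) and the sheddase ADAM10 (−0.66). EPCAM was not called in either line.

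The B7 family had 0 of 4 tested genes called in C4-2B by edgeR, with 1 at an unadjusted p under 0.05 and 0 called by DESeq2, and 1 of 6 called in NCI-H660, where VTCN1 (B7-H4) went from 31 and 40 counts to 4 and 8 (−2.34). The CEACAM family had 1 of 2 called in C4-2B, CEACAM19 at 1.66 on 18 to 46 counts, and in NCI-H660 all 5 tested had a negative value and 0 were called by edgeR or DESeq2, with 2 at an unadjusted p under 0.05 by each. Of the nectins and partners, NECTIN1 was lower in C4-2B (−0.56, 1 of 8 tested) and CD226, a receptor for nectin ligands, was higher in NCI-H660 (1.81, 1 of 10) on 5 to 27 counts. In the LY6 and PSCA family, LYNX1 is a modulator of nicotinic receptors and a neighbor of PSCA. It rose by 0.58 with more MYCL in C4-2B and by 1.51 with less MYCL in NCI-H660. The difference between the lines was 2.08 (edgeR adjusted p = 6.48e-05). LYPD1 fell in NCI-H660 by 0.83.

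The list of 42 other surface targets had 11 of 28 tested genes called in C4-2B, 8 higher and 3 lower. ROR2 had 0 and 1 counts in control and 15 and 18 with MYCL, at least 8.45-fold higher against 3 counts per library, and FOLR1, given above, rose by 2.62. L1CAM, a neural adhesion molecule, rose by 2.28 from 48 and 33 to 119 and 131 counts, and GPC3, a glypican, rose by 1.28. In NCI-H660, 8 of 33 were called, 4 higher and 4 lower. The phosphate transporter SLC34A2 fell by 2.07 on the log2 scale, from 455 and 491 to 101 and 95 counts, F3, tissue factor, rose by 0.97, and CLDN18 was at least 3.92-fold lower, from 13 and 14 counts to 3 and 0. MET, a receptor tyrosine kinase, rose by 1.19 with more MYCL in C4-2B and by 0.70 with less MYCL in NCI-H660. Its difference between the lines was 1.89 (edgeR adjusted p = 3.43e-05).

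**Figure D4:**
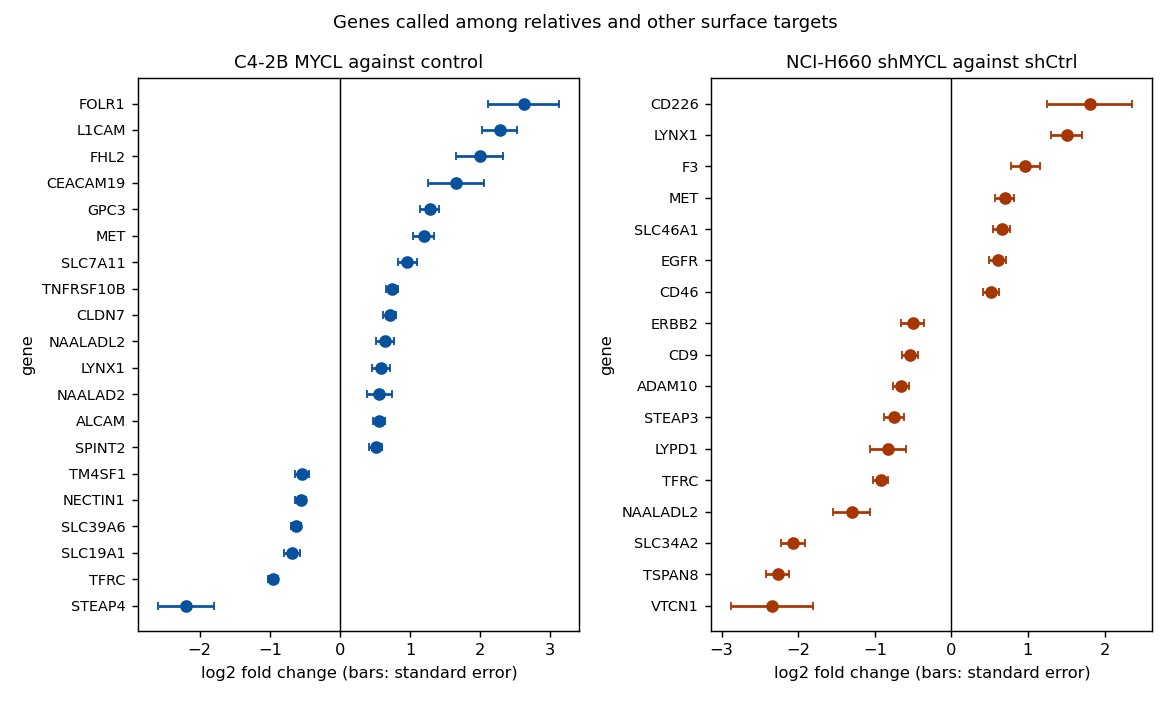
Log2 fold changes (x axis, bars of 1 SE) of the relatives and other surface targets (y axis) that were called in C4-2B MYCL against control (left) and in NCI-H660 shMYCL against shCtrl (right), each panel with its own scale. ROR2 and CLDN18 are left out because a group was at or under 3 counts; TFRC is negative in both panels, at −0.95 and −0.92, and MET and LYNX1 are positive in both.

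The genes whose pattern over the 4 group means was nearest to each antigen were found among 10173 genes by the distance between centered log2 CPM values. CD276 lay nearest to SPC24 (distance 0.026 on the log2 scale) and TOPORS (0.036), EPCAM to ZNF606 (0.068) and NEMP1 (0.083), and NECTIN4 to BIN1 (0.063) and RPLP2 (0.157). STEAP1 lay nearest to DPP4 (0.447) and LPAR3 (0.735), STEAP2 to CALD1 (0.359) and RPS2P5 (0.837), and FOLH1 to EPHA3 (0.373) and LDHB (0.579). The nearest gene to PSCA was STEAP1 (0.398), then SLC44A4 (0.578), and the nearest to CEACAM5 was CEACAM6 (0.819). SSTR2 lay nearest to STC1 (0.657) and CIART (0.668). The genes nearest to SSTR2, STEAP1, STEAP2, FOLH1, PSCA and CEACAM5 were all farther away than those of CD276, EPCAM and NECTIN4. These distances rest on 4 points each and are dominated by the difference between the lines.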

How the data were processed

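Poly(A) RNA of 8 libraries was sequenced in pairs. Deposited per gene were estimated counts and TPM. The counts were not all whole, as 22.4% of values above 0 differed from a whole number by over 0.01. The paper describes TPM made from counts and Ensembl gene lengths, but the deposited TPM did not follow a fixed length per gene. In NCI-H660 shCtrl, STEAP2 had 18 and 19 counts at 0.277 and 0.406 TPM, while EPCAM had 14271 and 14443 counts at 1102 and 958 TPM. The length for a gene therefore varied between libraries. The submitters' processing notes name hg38, and the aligner and counter are not given in the sources used here. Counts were rounded and tested with edgeR 4.0.16 (TMM, filterByExpr, quasi-likelihood test) in R 4.3.3, within each line for MYCL and over all 8 libraries between lines, with Benjamini-Hochberg adjustment over all genes tested. Calls needed an adjusted p under 0.05 plus a log2 change of 0.5 or more in size. DESeq2 1.42.0 and limma 3.58.1 on log2(TPM + 1) were alternatives. The tests were checked on simulated counts. The antigens and lists were chosen with earlier results of these data known. Named were all antigens, MYCL, up to 4 called genes of largest change per list and comparison, and the 2 genes nearest to each antigen; the chromosomal neighbors, CEACAM6, SSTR1, SSTR5, SST, the markers and the motif letters were chosen after values were seen. With 2 libraries per group, p-values measure only the spread between libraries, and an exact permutation test cannot go below 0.33. Positions are from GENCODE 44. Some marker genes and a second gene near CEACAM5 are not reported here.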

Additional observations from a re-analysis of the deposited data

Results flagged for a closer look

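For 4 antigens the difference between C4-2B and NCI-H660 in the effect of higher against lower MYCL had an adjusted p under 0.05 in edgeR's quasi-likelihood test. Of all genes tested, 20.2% reached that p. EPCAM and CD276 were below the minimum fold, and NECTIN4 was not called with DESeq2. The log2 difference was −2.249 for SSTR2, 0.998 for NECTIN4, −0.496 for EPCAM and −0.396 for CD276. The lines also differ in vector, in the size of the MYCL change and in mitochondrial share, which cannot be told apart from the line.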

How the results depend on the processing

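With no minimum fold, 4 antigens were called in C4-2B (1 in the report), 2 in NCI-H660 (1) and 4 for the difference between lines (2); with a minimum of 1, 0 were called in C4-2B and 1 for the difference, because the threshold itself moved. In NCI-H660, 0 antigens were called on all 4 TPM scales (pseudocounts 1 and 0.1, unfiltered and centered), by limma. On each scale 2 had an unadjusted p under 0.05, and SSTR2 stayed negative. Over all genes, limma called 1702 and 1600 of 16093 with pseudocounts of 1 and 0.1, 1692 of 16093 centered, and 1 of 29413 unfiltered. With so few calls unfiltered, a count of 0 there says nothing particular to the antigens or the list genes. Between the lines, 4 remained testable and called with at least 10 counts in every library, and the difference between lines gave 1 call with DESeq2. Of the list genes, 13 were called on log2(TPM + 1), 7 unfiltered and 8 with a minimum of 1 in C4-2B (21), and 0 unfiltered, 33 with no minimum and 7 with a minimum of 1 in NCI-H660 (18). The cause of the changes on TPM was not tested. With 1 library left out, the antigens called numbered 1 to 2 in C4-2B, 1 to 2 in NCI-H660, 8 to 8 between lines and 0 to 2 for the difference, and the list genes 17 to 23 and 15 to 22; an arm of 1 library was assumed to vary like the others.

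Signs turned only for values that were not called. SSTR2 in C4-2B was −0.0155 on unfiltered TPM and −0.35 to 0.35 with a library left out, and PSCA was −0.29 to 0.13. STEAP1 in NCI-H660 was 0.0119 with DESeq2, 0.0054 with RLE, 0.0627 on log2(TPM + 1), filtered or not, 0.0577 centered, 0.14 with a pseudocount of 0.1, and −0.48 to 0.77 with a library left out; STEAP2 there was −0.32 to 0.53. For the difference between lines, STEAP1 ran from −1.05 to 0.19 with a library left out, and STEAP2 from −0.49 to 0.37, with −0.0143 without the count filter, −0.24 on log2(TPM + 1), filtered or not, −0.03 with a pseudocount of 0.1 and −0.15 centered.

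Replicate numbers are shared between groups, but same-numbered libraries did not deviate together (r = −0.003 in C4-2B and 0.018 in NCI-H660 across genes), so the numbers are names. With the replicate block, STEAP1 in C4-2B was −0.56, SSTR2 in NCI-H660 was −2.335, STEAP1 in NCI-H660 was 0.0713, and the number of antigens called did not move. In C4-2B, the median of all genes moved by −0.14 on log2(TPM + 1), where STEAP1 was −0.70 and −0.55 after centering. Depth limits SSTR2, NECTIN4, STEAP1 and STEAP2 where they had under 100 counts.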
